A study of Mus musculus with 8 samples.

Results

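The genes described here encode enzymes that build and cap the sugar chains of surface proteins and lipids: sialyltransferases, galactosyltransferases, N-acetylglucosaminyl- and N-acetylgalactosaminyltransferases and fucosyltransferases. They were chosen by name, as every array row annotated with a single gene symbol that starts with *St3gal*, *St6gal*, *St8sia*, *B3galt*, *B3gnt*, *B4galt*, *B4galnt*, *Galnt* or *Fut* followed by a digit. This gave 63 of the 21905 gene symbols measured, on 67 of 22822 transcript clusters, a cluster being the set of probes that the array assigns to a transcript. *B3gnt7*, *Fut11*, *Galnt1* and *St8sia5* had a further cluster each, and the values given for a gene are those of its brightest cluster on average. *Fut4-ps1*, which the symbol marks as a pseudogene, falls under the rule and was kept.

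Expression was measured in whole adrenals of 4 knockout mice (KO, *Sf1:Cre* with both *Prkar1a* alleles floxed) and 4 wild-type littermates (WT), all female, 6 weeks old and on a mixed background, with 1 Affymetrix Mouse Gene 2.0 ST array per animal. *Sf1:Cre* acts in the steroidogenic cells of the adrenal cortex from the time the cortex forms, while the RNA also comes from medulla, capsule, vessels and any fat on the gland, which are not its stated targets. *Prkar1a* encodes the regulatory subunit that holds the catalytic subunits of protein kinase A (PKA) in check, and the comparison asks how the adrenal transcriptome differs when PKA is released from that restraint. In whole glands, a change in the number of cells of a type and a change in RNA per cell cannot be told apart.

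Sialyltransferases add sialic acid as the last sugar of a chain, in α2,3 linkage (ST3GAL), in α2,6 linkage (ST6GAL) or in α2,8 linkage onto another sialic acid (ST8SIA). Of the chains beneath it, the mucin-type O-linked ones are started by GALNT enzymes on serine and threonine. Chains are lengthened by alternating galactose and N-acetylglucosamine through B4GALT, B3GALT and B3GNT enzymes, and decorated with fucose by FUT enzymes. On ceramide the same classes of enzyme make the gangliosides, sialylated glycolipids of the plasma membrane, several of which are abundant in nervous tissue and endocrine glands.

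*Prkar1a* itself was lower in KO adrenals, by -1.73 log2 units (SE 0.12, limma adjusted p = 1.19e-05), with levels of 6.92 to 7.35 in KO arrays and 8.70 to 9.11 in WT arrays. All levels are RMA values on the log2 scale. Array medians lay between 5.83 and 5.89, and correlations between arrays were 0.991 to 0.995 within KO, 0.990 to 0.995 within WT and 0.978 to 0.984 between the genotypes. The 5 measured genes of a list for zona fasciculata and steroid synthesis averaged 12.26 to 12.45 in KO arrays and 12.40 to 12.53 in WT arrays. This list includes *Mc2r*, the gene of the receptor for the pituitary hormone ACTH, which was lower (-0.61, adjusted p = 0.017 from limma). The synthesis gene *Cyp11a1* was higher (0.24, adjusted p = 0.034), and *Cyp11b1*, *Star* and *Hsd3b1* did not pass the test. Even so, the KO arrays all lay above the WT arrays for *Star* (0.091) and all below them for *Cyp11b1* (-0.12). As a guide to dim signal, the level below which 95% of the 1105 olfactory receptor symbols lay was 5.23. Among marker lists of other cells, adipocyte markers were lower in KO (7 of 9 measured). Of 3 markers of the X-zone, the inner cortex of young mice, *Pik3c2g* and *Thrb* were lower. The third, *Akr1c18*, averaged 12.98 in KO and 12.95 in WT and did not pass the test (0.030, adjusted p = 0.862 from limma). The mean levels of these 3 markers were 8.72 to 8.95 in KO arrays and 9.38 to 9.49 in WT arrays. Endothelial markers were higher (3 of 6, mean levels of 9.38 to 9.58 in KO arrays and 9.16 to 9.33 in WT arrays), as were 2 of 6 markers of capsule and fibroblasts (8.10 to 8.84 in KO arrays and 7.999 to 8.30 in WT arrays). All 6 zona glomerulosa markers were lower, with mean levels of 6.93 to 7.31 in KO arrays and 9.51 to 9.92 in WT arrays. The part of these shifts in the enzyme levels was not tested. With 4 arrays per genotype, array number sets the precision throughout.

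Among the 63 genes, 4 were higher in KO adrenals (6.35%) and 11 were lower (17.5%), at an adjusted p under 0.05 in limma's test over all clusters. Over all 21905 symbols, 7.47% were higher and 6.30% were lower. The share of the enzymes that rose was thus near the background, and the share that fell was above it. KO and WT arrays did not overlap for 18 of the 63 genes, or 28.6%, of which 6 lay higher in KO and 12 lower, against 19.3% of all symbols. The median change was -0.078 for the enzymes and -0.020 for all symbols. Of the enzymes, 20 had means over all arrays in the olfactory receptor range and 43 lay above it, *St8sia5* only through its KO arrays.

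**Figure D1:**
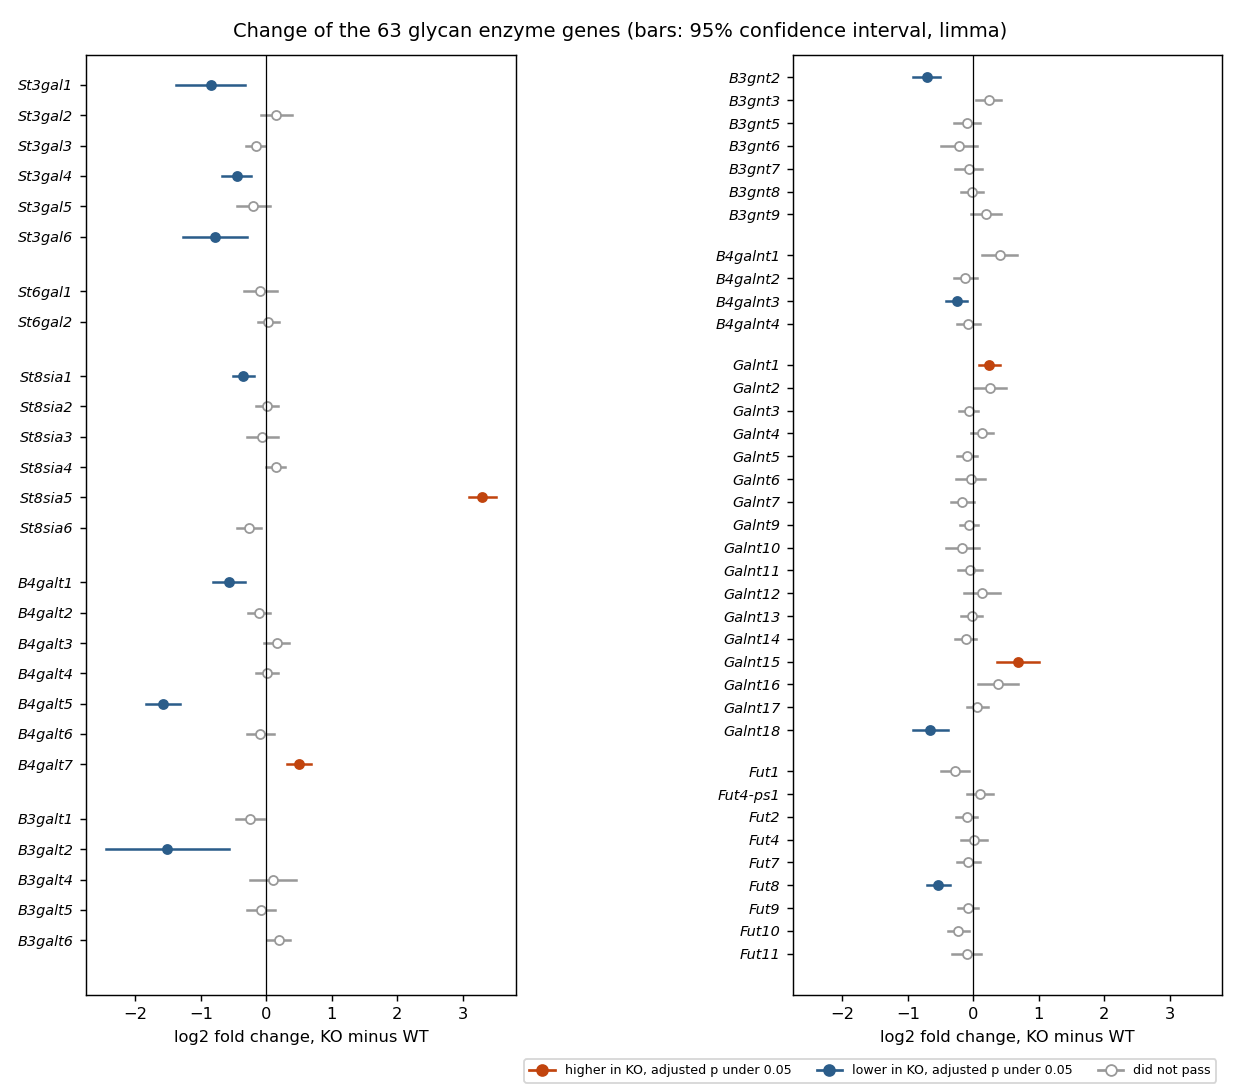
The log2 fold change of each of the 63 genes, KO minus WT, with its 95% confidence interval from limma, grouped by family (n = 4 arrays per genotype). Filled points passed the test: *St8sia5* stands at 3.30, *B4galt5* at -1.57 and *B3galt2* at -1.51, and the genes with open points lie between -0.28 and 0.40.

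The sialyltransferases that passed the test moved in opposite directions. Of the 14 among the 63 genes, 1 rose, 4 fell and 9 did not pass, and the gene that rose had the largest measured change of the 63. The *St6galnac* sialyltransferases fall outside the naming rule and are given further below. *St8sia5* encodes the α2,8-sialyltransferase that adds further sialic acids to gangliosides. Its level was 8.29, 8.33, 8.24 and 8.01 in the KO arrays and 4.83, 4.85, 5.12 and 4.89 in the WT arrays. Every KO array thus lay far above every WT array, and all WT arrays lay within the olfactory receptor range. The difference in log2 level was 3.30 (95% confidence interval 3.09 to 3.51, SE 0.093, adjusted p = 4.44e-08 from limma), a 9.84-fold higher measured signal in KO. WT signal lay above the olfactory receptor median of 3.27 but within their range. This fold thus describes the signal, and the size of the change in RNA is not known from it.

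The second *St8sia5* cluster gave another picture. Its levels were 5.30, 5.53, 5.51 and 5.45 in the KO arrays and 5.47, 5.42, 5.38 and 5.48 in the WT arrays. The genotypes overlapped throughout, and the difference was 0.011 (95% confidence interval -0.15 to 0.17, adjusted p = 0.947 from limma). Its confidence interval lies wholly below that of the other cluster. The table that names the clusters gives both as *St8sia5* and does not say which exons each covers, so the increase holds for the other cluster only. That cluster is the brighter of the pair on average only through its KO arrays. In WT adrenals the second cluster had the brighter signal, at 5.44 ± 0.04 against 4.92 ± 0.14 (SD, n = 4), and a choice of cluster by WT signal would thus have shown no difference for *St8sia5*.

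The remaining ST8SIA genes showed no change of that size. *St8sia1*, which encodes GD3 synthase, the enzyme that adds the α2,8-linked sialic acid to GM3, had levels of 4.09, 4.26, 4.27 and 4.30 in the KO arrays and 4.68, 4.50, 4.57 and 4.60 in the WT arrays. The arrays did not overlap, although all lay in the olfactory receptor range, and *St8sia1* was lower in KO by -0.35 (SE 0.072, adjusted p = 0.00848 from limma). The polysialyltransferase genes *St8sia2* and *St8sia4*, whose enzymes build long α2,8 chains on neural cell adhesion molecules, differed by 0.0038 (adjusted p = 0.982) and 0.14 (adjusted p = 0.201), although the KO arrays of *St8sia4* all lay above the WT arrays. *St8sia3* differed by -0.062. For *St8sia6*, an enzyme that favours O-linked chains, the KO arrays all lay below the WT arrays, with a difference of -0.26 that did not pass the test (adjusted p = 0.0683).

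Along the route to gangliosides, 2 genes of the opening steps were lower in KO, *Ugcg* and *B4galt5*. *Ugcg*, a gene outside the 63 whose enzyme makes glucosylceramide, had levels of 7.93 to 8.06 in KO and 8.27 to 8.35 in WT (n = 4 each) and was lower by -0.30 (SE 0.062, adjusted p = 0.0084). *B4galt5* and *B4galt6* encode the 2 enzymes that add galactose to glucosylceramide and so form lactosylceramide. *B4galt5* had levels of 7.73, 7.64, 7.50 and 7.55 in the KO arrays and 9.52, 9.17, 9.12 and 8.91 in the WT arrays. All KO arrays lay well below all WT arrays, and the difference of -1.57 (95% confidence interval -1.83 to -1.31, SE 0.12, adjusted p = 2.03e-05 from limma) is a 2.98-fold lower signal in KO, the largest decrease among the 63 genes. *B4galt6* differed by -0.092 (95% confidence interval -0.30 to 0.11, adjusted p = 0.601) and did not pass the test.

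*St3gal5*, which encodes GM3 synthase and opens the ganglioside series proper, averaged 9.19 ± 0.24 in KO and 9.39 ± 0.10 in WT (SD, n = 4 each) and did not pass the test (-0.20, adjusted p = 0.306). *B4galnt1*, whose enzyme adds N-acetylgalactosamine to form GM2 and GD2, had the largest change among genes that did not pass. Its levels were 6.65, 6.97, 6.92 and 6.66 in the KO arrays and 6.35, 6.30, 6.72 and 6.21 in the WT arrays. WT array 3 lay among the KO arrays and the other WT arrays lay below them, with a difference of 0.40 (SE 0.12, adjusted p = 0.0508 from limma). The adjusted p of *B4galnt1* lay between 0.0108 and 0.176 over the other settings tried, 7 of which placed it under the threshold. *B3galt4*, whose enzyme forms GM1 and GD1b, lay at 5.24 ± 0.35 in KO and 5.14 ± 0.17 in WT (SD, n = 4 each), around the upper end of the olfactory receptor range, with KO array 1 (5.74) and WT array 2 (5.26) above it. Over the 17 ganglioside route genes, 11 of which belong to the 63, 1 rose and 4 fell (median change -0.092, against -0.020 for all symbols). Of all symbols, 7.47% rose and 6.30% fell.

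**Figure D2:**
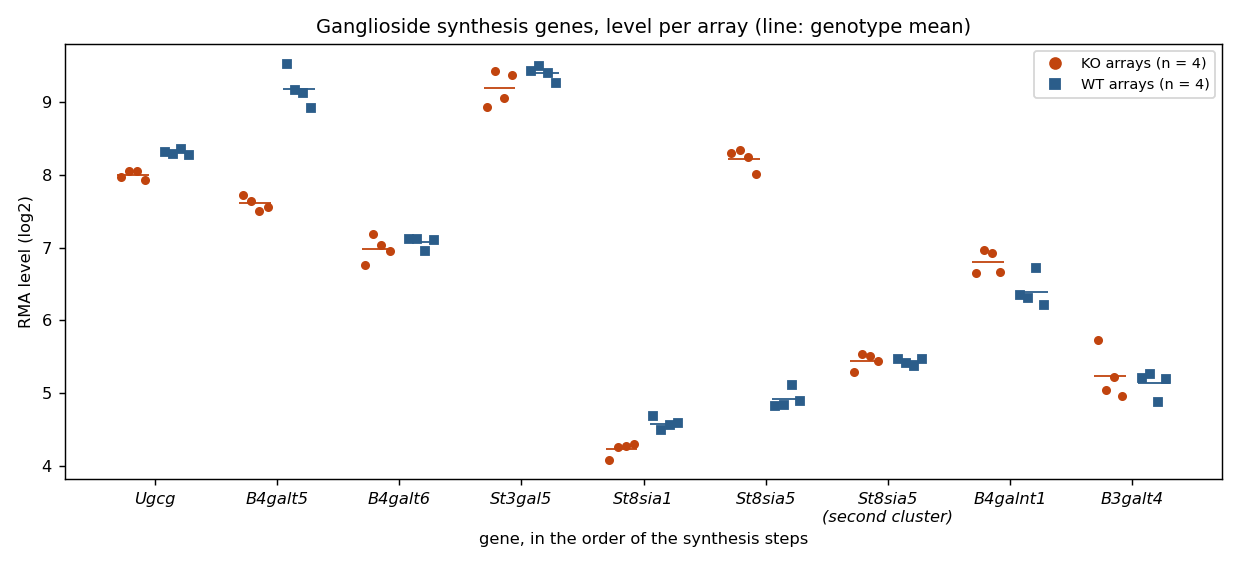
Level per array (RMA, log2) of genes for ganglioside synthesis in the order of the steps, with KO arrays as circles, WT arrays as squares and genotype means as lines (n = 4 each). *B4galt5* lies at 7.50 to 7.73 in KO and 8.91 to 9.52 in WT, *St8sia5* at 8.01 to 8.33 in KO and 4.83 to 5.12 in WT, and the second *St8sia5* cluster overlaps between the genotypes.

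Among the ST3GAL genes 3 of 6 fell, and the others, *St3gal2*, *St3gal3* and *St3gal5*, differed by 0.15, -0.16 and -0.20 without passing the test. *St3gal4*, whose enzyme caps N-acetyllactosamine chains with α2,3-linked sialic acid, had levels of 7.13, 7.30, 7.36 and 7.51 in the KO arrays and 7.63, 7.97, 7.74 and 7.78 in the WT arrays. The genotypes were separated by a small gap, and *St3gal4* was lower in KO by -0.46 (SE 0.098, adjusted p = 0.011 from limma). *St3gal6*, which acts on the same kind of chain, had levels of 6.10, 6.36, 6.27 and 6.25 in the KO arrays and 6.41, 7.20, 6.83 and 7.68 in the WT arrays. KO arrays were tightly grouped and WT arrays were spread, with WT array 1 only just above the KO arrays, and the difference was -0.79 (SE 0.22, adjusted p = 0.0376 from limma).

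*St3gal1* encodes the enzyme that sialylates core 1, the galactose and N-acetylgalactosamine pair at the base of O-linked chains. Its levels were 8.58, 7.80, 7.87 and 7.88 in the KO arrays and 8.91, 9.55, 8.66 and 8.42 in the WT arrays. KO array 1 lay above WT array 4, so the genotypes overlapped, while the other KO arrays lay below all WT arrays. The difference was -0.85 (SE 0.24, adjusted p = 0.0388 from limma). With 1 array left out it lay between -1.03 and -0.63, and it passed the test only without KO array 1 or WT array 4. The α2,6-sialyltransferase genes *St6gal1* and *St6gal2* differed by -0.095 (adjusted p = 0.664) and 0.031 (adjusted p = 0.846).

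Of the genes for chain extension, several others fell. *B4galt1*, whose enzyme adds β1,4-linked galactose to N-acetylglucosamine on most N-linked chains, had levels of 9.37, 9.56, 9.85 and 9.67 in the KO arrays and 10.27, 10.33, 10.11 and 10.02 in the WT arrays. The arrays did not overlap and *B4galt1* was lower in KO by -0.57 (SE 0.11, adjusted p = 0.00614 from limma). *B3gnt2* encodes the main enzyme that adds N-acetylglucosamine to extend poly-N-acetyllactosamine. It had levels of 6.46, 6.26, 6.33 and 6.21 in the KO arrays and 7.20, 6.81, 7.06 and 7.06 in the WT arrays. KO lay below WT in every array, by -0.72 (SE 0.093, adjusted p = 5.73e-04 from limma), a 1.64-fold lower signal. The enzyme pair *B4galt1* and *B3gnt2*, which alternate in building these chains, were thus both lower.

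*B4galt7* went the other way. Its enzyme adds the first galactose of the linker that joins glycosaminoglycans to proteoglycan core proteins. The levels were 6.61, 6.62, 6.86 and 6.74 in the KO arrays and 6.12, 6.28, 6.32 and 6.09 in the WT arrays. All KO arrays lay above all WT arrays, by 0.50 (SE 0.084, adjusted p = 0.00267 from limma). *B3galt6*, whose enzyme adds the next galactose of the same linker, differed by 0.19 (adjusted p = 0.154). *B4galt2*, *B4galt3* and *B4galt4* differed by -0.12, 0.16 and 0.0052, and none of them passed the test.

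*B3galt2* encodes a β1,3-galactosyltransferase that acts on N-acetylglucosamine. Its levels were 6.58, 6.64, 7.002 and 6.62 in the KO arrays and 6.68, 8.64, 8.40 and 9.20 in the WT arrays. WT array 1 lay within the KO range, 1.71 below the nearest other WT array, and the other WT arrays lay far above KO. The difference was -1.51 with a wide interval (95% confidence interval -2.45 to -0.58, SE 0.42, adjusted p = 0.0391 from limma). With 1 array left out, the difference of *B3galt2* lay between -2.03 and -1.19 and passed only without WT array 1, which gave -2.03. Likewise, *St3gal6* lay between -0.99 and -0.57 and passed only without WT array 1, which gave -0.99.

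Adipocyte markers other than *Lep* were also low in WT array 1, by unlike amounts. *Ucp1* was 5.95 there and 9.91 to 10.64 in the other WT arrays, and *Cidea* 6.50 and 9.91 to 10.04. *Plin1* was 8.06 there and 8.68 to 8.89 in the other WT arrays. *Lep* was 6.05 there and 5.68 to 6.41 in the others, and its change in KO was upward (1.05, adjusted p = 0.233 from limma). The mean of the 9 measured markers was 6.70, 7.49, 8.43 and 7.69 in the KO arrays and 8.08, 9.89, 9.74 and 10.07 in the WT arrays. WT array 1 was again within the KO range, as for *B3galt2*, and for *St3gal6* it was the lowest WT array. None of the 9 markers lay in the olfactory receptor range on average, and the part of fat tissue in the levels of *B3galt2* and *St3gal6* was not tested.

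**Figure D3:**
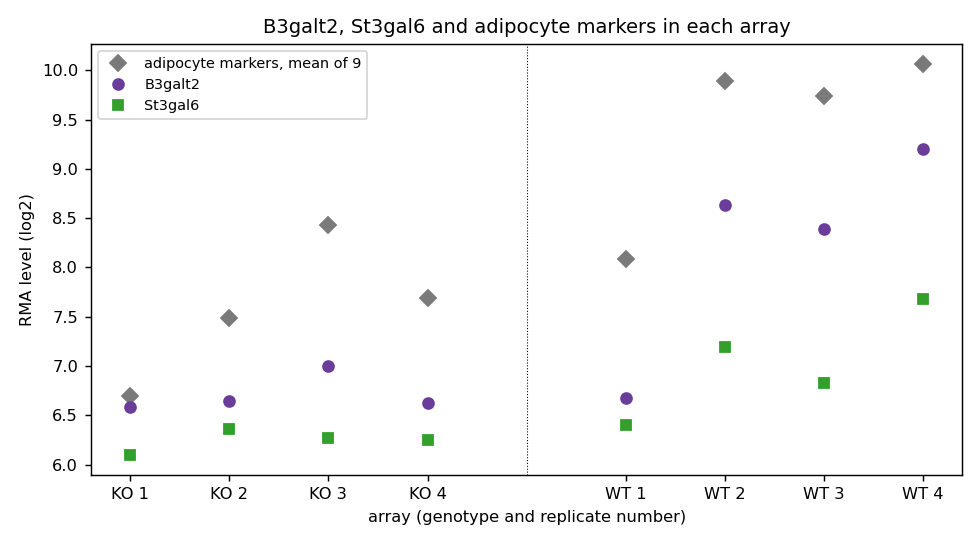
Level per array (RMA, log2) of *B3galt2*, *St3gal6* and the mean of 9 adipocyte markers, KO arrays on the left and WT arrays on the right. In WT array 1 the values are 6.68, 6.41 and 8.08, against 8.40 to 9.20, 6.83 to 7.68 and 9.74 to 10.07 in the other WT arrays.

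Of the other B3GALT, B3GNT and B4GALNT genes, *B4galnt3* fell. With its relative *B4galnt4*, it encodes an enzyme that adds β1,4-linked N-acetylgalactosamine to N-acetylglucosamine. *B4galnt3* had levels of 6.07, 6.02, 6.18 and 5.88 in the KO arrays and 6.31, 6.32, 6.25 and 6.28 in the WT arrays. The arrays were narrowly separated, by -0.25 (SE 0.074, adjusted p = 0.0471 from limma), and leaving out any single array except KO array 3 took the adjusted p over the threshold, with differences of -0.30 to -0.20. *B4galnt2* and *B4galnt4*, both in the olfactory receptor range, differed by -0.12 and -0.074. *B3galt1*, *B3galt4* and *B3galt5* lay between -0.25 and 0.11. *B3gnt3*, *B3gnt5*, *B3gnt6*, *B3gnt7*, *B3gnt8* and *B3gnt9* lay between -0.21 and 0.23, with adjusted p of 0.109 or more.

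Most genes that start mucin-type O-linked chains did not pass the test. Of the 17 *Galnt* genes, 2 rose and 1 fell, and the other 14 lay between -0.17 and 0.38. *Galnt15* had levels of 5.82, 5.84, 6.48 and 5.86 in the KO arrays and 5.34, 5.46, 5.11 and 5.35 in the WT arrays. KO array 3 stood above the other KO arrays, and all KO arrays lay above all WT arrays (0.68, SE 0.145, adjusted p = 0.0105 from limma). Without KO array 3 the difference was 0.52, the lowest value over the arrays left out in turn.

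*Galnt1*, a widely expressed member of the family, had levels of 9.31, 9.37, 9.24 and 9.29 in the KO arrays and 9.04, 8.98, 9.01 and 9.20 in the WT arrays. The arrays did not overlap, and the difference was 0.25 (SE 0.070, adjusted p = 0.0419 from limma). The second *Galnt1* cluster gave levels of 8.15, 8.39, 8.12 and 8.27 in the KO arrays and 7.88, 7.95, 7.99 and 7.96 in the WT arrays. It too was separated and passed the test (0.29, SE 0.075, adjusted p = 0.0282), so both clusters of *Galnt1* rose, unlike those of *St8sia5*. With 1 array left out the difference of the main *Galnt1* cluster lay between 0.22 and 0.29 and passed only without WT array 4.

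*Galnt18* was the member of the family that fell. It had levels of 6.41, 5.86, 6.23 and 6.22 in the KO arrays and 7.01, 6.92, 6.74 and 6.69 in the WT arrays. KO lay below WT in every array (-0.66, SE 0.12, adjusted p = 0.0042 from limma). Of the genes that did not pass, *Galnt16* had KO arrays above all WT arrays (0.38, adjusted p = 0.108), and *Galnt2*, another widely expressed member, differed by 0.26 (adjusted p = 0.178).

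Among the 9 *Fut* symbols, *Fut8* fell. FUT8 is the enzyme that places the core α1,6-linked fucose on N-linked chains. Its levels were 9.16, 8.91, 8.86 and 9.01 in the KO arrays and 9.50, 9.58, 9.42 and 9.59 in the WT arrays. No KO array reached the lowest WT array, and the difference was -0.54 (SE 0.080, adjusted p = 0.0014 from limma), a 1.45-fold lower signal. *Fut1*, whose enzyme makes the H antigen, and *Fut10* also had KO arrays below all WT arrays, with differences of -0.28 (adjusted p = 0.0826) and -0.23 (adjusted p = 0.0566), *Fut1* at levels in the olfactory receptor range in both genotypes. The genes for the enzymes of Lewis-type fucose, *Fut4*, *Fut7* and *Fut9*, lay in the olfactory receptor range and differed by 0.0039, -0.078 and -0.082. *Fut2*, *Fut11* and *Fut4-ps1* differed by -0.10, -0.10 and 0.098, and the second *Fut11* cluster by 0.041.

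**Figure D4:**
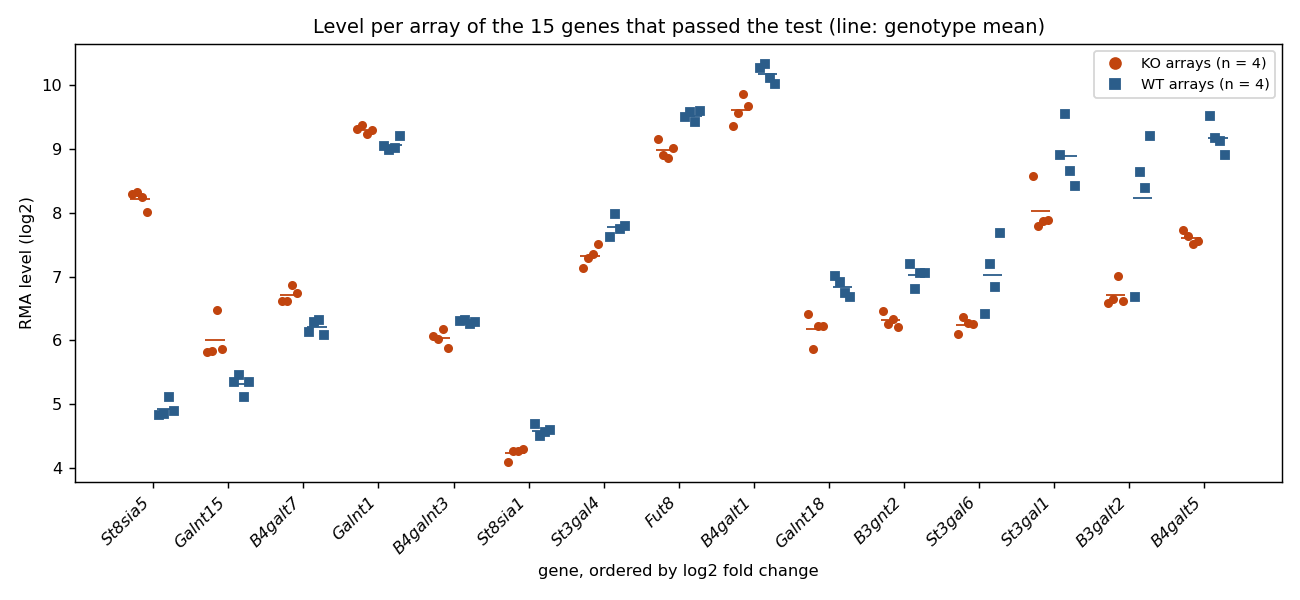
Level per array (RMA, log2) of the 15 genes that passed the test, ordered by log2 fold change from *St8sia5* to *B4galt5*, with KO arrays as circles, WT arrays as squares and genotype means as lines (n = 4 each). The arrays of the genotypes overlap for *St3gal1* and *B3galt2* and are separated for the other 13.

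Promoter sequences from RefSeq (GRCm38.p6, 250 bases before to 50 bases after each transcript start) were found for 46 of the 63 genes and 11 of the 15 that passed. None was available for *St8sia5*, so the search does not cover the gene with the largest change. They were searched on both strands for TGACG, the half-site of the cAMP response element that CREB, a PKA substrate, binds, for the full element TGACGTCA, which contains the half-site on each strand, and for AAGGTCA, a site of the steroidogenic factor SF1. TGACG was in 16 of the 61 windows of these genes (26.2%) and in 3 of the 15 windows of genes that passed (20%), against 20.8% of all 32851 windows. TGACGTCA was in 2 of the 61, those of *Galnt11* and *B4galt3*, and 1.79% of all windows. AAGGTCA was in none of the 61 and 4.72% of all windows. Of the genes that passed, *B3galt2* had TGACG 4 bases before the start, *B3gnt2* 63 bases before it and *Galnt15* 227 bases before it, although *B3galt2* and *B3gnt2* fell while *Galnt15* rose. Their sequences are shown, from 250 bases before to 20 bases after the start, so that the place of the half-site can be read beside the direction of change, with that of *B4galt5*, which had the largest decrease and no match. Capitals mark TGACG.
B3galt2 chr1:143640447-143640716 (+ strand): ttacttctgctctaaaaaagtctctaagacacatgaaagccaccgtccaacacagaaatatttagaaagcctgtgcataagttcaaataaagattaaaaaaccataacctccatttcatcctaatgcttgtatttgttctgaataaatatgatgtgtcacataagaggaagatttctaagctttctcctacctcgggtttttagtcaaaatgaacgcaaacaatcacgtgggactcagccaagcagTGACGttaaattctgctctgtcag
B3gnt2 chr11:22859716-22859985 (- strand): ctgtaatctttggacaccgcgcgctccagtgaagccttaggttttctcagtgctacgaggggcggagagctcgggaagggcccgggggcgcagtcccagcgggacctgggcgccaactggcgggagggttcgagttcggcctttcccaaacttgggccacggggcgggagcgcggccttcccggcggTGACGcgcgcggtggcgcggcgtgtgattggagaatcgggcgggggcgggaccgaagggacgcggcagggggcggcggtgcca
B4galt5 chr2:167349159-167349428 (- strand): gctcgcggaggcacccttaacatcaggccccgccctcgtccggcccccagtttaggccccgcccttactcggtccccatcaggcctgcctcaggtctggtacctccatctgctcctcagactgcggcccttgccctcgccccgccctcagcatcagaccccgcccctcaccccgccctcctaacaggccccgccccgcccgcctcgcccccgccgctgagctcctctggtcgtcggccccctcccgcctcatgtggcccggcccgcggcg
Galnt15 chr14:32028853-32029122 (+ strand): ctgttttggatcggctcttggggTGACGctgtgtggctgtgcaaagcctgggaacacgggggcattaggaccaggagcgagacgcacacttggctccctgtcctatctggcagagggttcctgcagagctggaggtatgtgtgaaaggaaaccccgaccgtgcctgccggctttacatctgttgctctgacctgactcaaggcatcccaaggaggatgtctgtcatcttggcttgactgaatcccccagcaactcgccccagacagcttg

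The B3galt2 window, with a GC content of 37%, stood apart in base composition from those of Galnt15 (57.8%), B3gnt2 (71.1%) and B4galt5 (74.1%). Half-sites were thus found in the window of *Galnt15*, which rose, and in those of *B3galt2* and *B3gnt2*, which fell. Their share was near that of all windows, and *St8sia5* was not searched.

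Genes around these enzymes were read from lists of related steps. Over all symbols, 7.47% were higher and 6.30% lower, and above the olfactory receptor range these shares were 11.4% and 8.96%. In the *St6galnac* family, which adds α2,6-linked sialic acid to N-acetylgalactosamine, 2 of 6 rose. *St6galnac2* had levels of 7.01, 7.08, 7.11 and 7.32 in the KO arrays and 5.83, 5.65, 6.33 and 6.28 in the WT arrays. All KO arrays lay above all WT arrays, by 1.11 (SE 0.15, adjusted p = 6.9e-04 from limma). *St6galnac1* rose by 0.51 (SE 0.13, adjusted p = 0.024), with an adjusted p over the threshold when KO array 3 or 4 or WT array 1, 2 or 3 was left out. Of 12 genes for sialic acid supply and removal, only the lysosomal sialidase gene *Neu1* rose (0.23, adjusted p = 0.043), and of the arrays left out in turn only the omission of KO array 1 kept it under the threshold. The genes for the sialic acid synthesis enzymes *Gne*, *Nans* and *Nanp* differed by -0.012, 0.055 and 0.031.

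Among 9 genes for the breakdown of glycosphingolipids in lysosomes, 5 rose in KO, and the median change was 0.23. All lay above the olfactory receptor range on average, where 11.4% of all symbols were higher. The 5 included *Neu1*, given above, which passed in 7 of 17 other settings. *Gla*, which encodes α-galactosidase A, averaged 8.69 ± 0.20 in KO and 7.81 ± 0.14 in WT (SD, n = 4 each), a difference of 0.88 (SE 0.11). *Galc*, the galactosylceramidase gene, averaged 7.55 ± 0.26 in KO and 6.67 ± 0.17 in WT, also 0.88 (SE 0.13). *Psap*, which encodes the precursor of the saposins that present glycolipids to these enzymes, rose by 0.69 (SE 0.12), and *Asah1*, the acid ceramidase gene, rose by 0.57 (SE 0.072). Adjusted p from limma lay between 4.3e-04 for *Gla* and 0.0033 for *Psap*. Markers of endothelial cells (3 of 6), of capsule and fibroblasts (2 of 6), and of macrophages (1 of 6) were higher too, and their part in these changes was not tested.

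Of 10 genes for the supply of sugar nucleotides, 4 rose (median change 0.25). These were *Slc35d2*, a nucleotide sugar transporter of the Golgi (0.72, SE 0.15), and 3 genes of the hexosamine pathway that makes UDP-N-acetylglucosamine, *Pgm3* (0.67, SE 0.11), *Gnpnat1* (0.50, SE 0.10) and *Gfpt1* (0.35, SE 0.080). The arrays of the genotypes did not overlap for any of these 4 genes, and adjusted p lay between 0.0023 and 0.015 in limma. The *t*-test named in the methods called 2 of the 10 genes higher with equal variances and 0 with unequal variances. *Gfpt1* encodes the enzyme that controls entry into the pathway.

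In the trimming and branching of N-linked chains 3 of 12 genes rose and 1 fell. The Golgi mannosidase genes *Man1c1* (0.80, SE 0.10, adjusted p = 5.3e-04) and *Man2a1* (0.49, SE 0.079, adjusted p = 0.0023) rose. *Mgat3*, whose enzyme adds the bisecting N-acetylglucosamine, rose by 0.46 (SE 0.13, adjusted p = 0.041), and *Man2a2*, the close relative of *Man2a1*, was lower by -0.36 (SE 0.093, adjusted p = 0.027). *Mgat3* lost the call when any array but WT array 1 was left out, and *Man2a2* when KO array 1, 2 or 4 or WT array 2 or 3 was left out. Of 9 genes for O-linked cores, *Gcnt4*, a core 2 enzyme gene, rose by 0.83 (SE 0.13, adjusted p = 0.0016), and *B3galnt2*, which acts on α-dystroglycan, by 0.36 (SE 0.087, adjusted p = 0.021), which was lost without KO array 2 or 3 or WT array 3 or 4.

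In the last pair of lists no gene passed the test in limma. Among 10 genes for fucose supply and O-linked fucose, 1 was higher and 2 were lower at an unadjusted p under 0.05, and the *t*-test named in the methods called 1 with equal variances and 0 with unequal variances. Of 11 carriers of polysialic acid and sialic acid lectins, 3 were lower at an unadjusted p under 0.05 and neither *t*-test called any. *Ncam1*, the best known carrier of polysialic acid, averaged 8.04 ± 0.29 in KO and 7.77 ± 0.08 in WT (SD, n = 4 each; difference 0.27, adjusted p = 0.22).

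**Figure D5:**
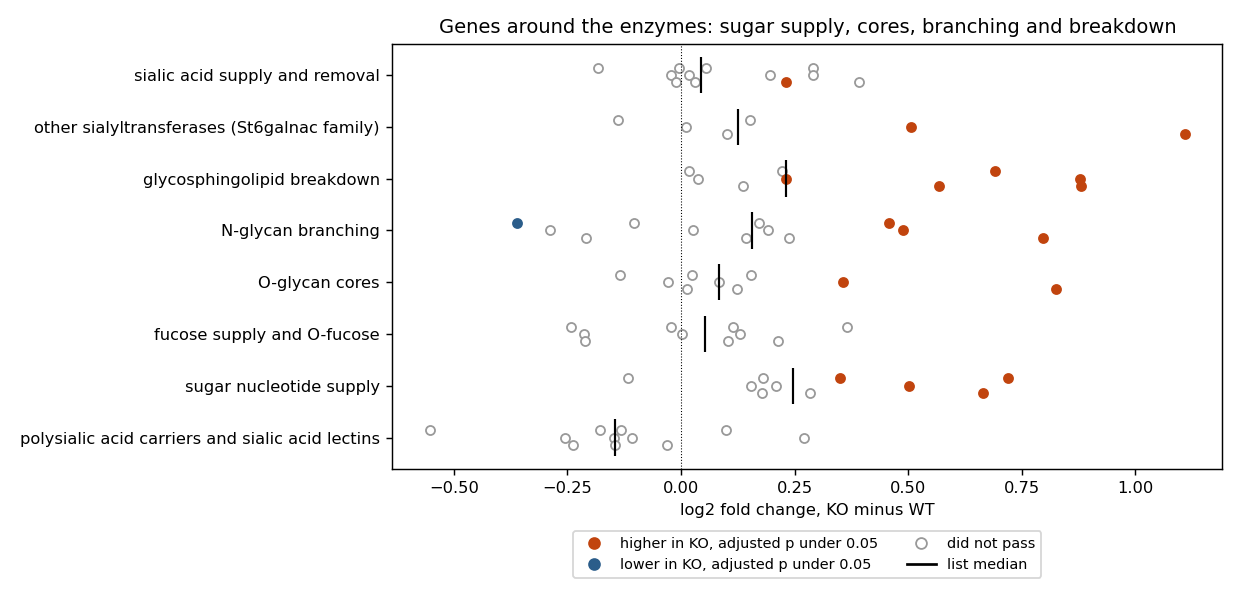
The log2 fold change, KO minus WT, of each measured gene in 8 lists of related steps, with list medians as lines (n = 4 arrays per genotype). Filled points passed the test: 5 of 9 genes for glycosphingolipid breakdown and 4 of 10 for sugar nucleotide supply lie to the right, and *St6galnac2* lies farthest right at 1.11.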

How the data were processed

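RNA of whole adrenals from 4 KO and 4 WT mice was hybridised to 1 Affymetrix Mouse Gene 2.0 ST array per animal. The deposited values per array are log2 expression levels, normalized by the authors with RMA (background correction, quantile normalization and probe summary per transcript cluster, affy package for R, version not given in the sources used here). A deposited table with the authors' own comparison (log2 fold changes and adjusted p-values) was not used.

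Values were used as deposited. Of 28067 clusters, the 22822 with 1 gene symbol in the platform annotation were tested; 1703 with several symbols and 3542 with none were left out. The genotypes were compared by limma (version 3.58.1, under R 4.3.3), fitting a linear model to each cluster with moderated variances, two-sided and without covariates, with Benjamini-Hochberg adjustment over all 22822 clusters and a call at an adjusted p under 0.05. The methods used a *t*-test and also required a log2 fold change beyond 1; both were run as alternatives. Fold changes are KO minus WT. The dim range is set by the 95th percentile of the means of 1105 olfactory receptor symbols. Members called, both clusters of *St8sia5* and the largest change not called are given per array, and up to 4 called genes per list are named. The enzymes and gene lists were chosen with earlier results of these data known, so their counts are descriptions. Limma's procedure was tested on simulated data. Tables and figures were made with Python 3.11.15, pandas 2.3.3 and matplotlib 3.10.9.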

Additional observations from a re-analysis of the deposited data

Results flagged for a closer look

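In each genotype, the enzyme genes, *Prkar1a* and the genes named as passing in the lists of related steps were checked with Dixon's ratio. The check looked for 1 array that stood apart from the other 3. Cell type markers and list genes that did not pass were not checked. The ratio marked 12 of 172 groups over 86 genes or clusters, where chance marks about 1 in 20. No cause was tested.

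Among genes that passed the test, *B3galt2* was 7.002 in KO array 3 and 6.58 to 6.64 in the other KO arrays. *Galnt15* was 6.48 in KO array 3 and 5.82 to 5.86 in the others. *St3gal1* was 8.58 in KO array 1 and 7.80 to 7.88 in the others.

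Among genes that did not pass, *B3gnt7* was 4.79 in KO array 4 and 4.99 to 5.03 in the other KO arrays. In WT, *Galnt10* was 7.89 in array 1 (the others 7.57 to 7.59), *St6gal1* was 7.20 in array 4 (the others 7.46 to 7.50) and *B4galt6* was 6.96 in array 3 (the others 7.11 to 7.12). *B3gnt8* was 4.40 in WT array 1 (the others 4.37 to 4.38) and *B3gnt6* was 5.22 in WT array 3 (the others 4.72 to 4.75), both at levels in the olfactory receptor range.

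Among genes of the lists, *Gcnt4* was 5.43 in WT array 2 (the others 5.90 to 5.92), *Slc35d2* was 6.72 in WT array 4 (the others 6.26 to 6.32) and *Gla* was 8.01 in WT array 1 (the others 7.73 to 7.75). For these 3 genes every WT array stayed below every KO array.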

How the results depend on the processing

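No result changed direction under any alternative. *St8sia5*, *B4galt5*, *B3gnt2*, *Fut8*, *B4galt7* and *St8sia1* passed the test in every fit that included their main cluster, *St8sia1* being absent from the fit of clusters above the median level. The second *St8sia5* cluster gave 0.011 and did not pass. The *t*-test named in the methods called 3 genes higher and 6 lower with equal variances (4.76% and 9.52%, against 5.35% and 4.13% of all symbols), and 2 higher and 4 lower with unequal variances (3.17% and 6.35%, against 3.15% and 2.2%); the cause was not tested. Adding a log2 fold change beyond 1 left 1 higher (*St8sia5*) and 2 lower (*B4galt5* and *B3galt2*), since fewer genes can reach it. These are 1.59% and 3.17%, against 1.12% and 0.954% of all symbols. With 1 array left out, 3 to 4 genes were higher (4.76% to 6.35%, against 5.84% to 7.04% of all symbols). In the same fits 7 to 9 were lower (11.1% to 14.3%, against 4.68% to 5.87%), with 7 lower without KO array 2, WT array 2 or WT array 3. Between 19 and 23 genes did not overlap (30.2% to 36.5%, against 22.4% to 24.7% of all symbols, since fewer arrays separate more often). *St8sia5* lay between 3.26 and 3.37. Array weights, an intensity trend with robust variance, centring on medians, repeated quantile normalization, clusters above the median level and all clusters gave 13 to 17 called genes, of which 12 to 15 were among the 15. *B4galnt3* passed in 3 of 17 settings, *B3galt2* in 7, *St3gal1* and *St3gal6* in 8, and *Galnt1* in 8 of 18. *St3gal4* and *Galnt15* passed neither form of the *t*-test, and *B4galt1* and *Galnt18* did not pass the form with unequal variances. With the replicate number as a block, 4 genes were higher and 10 lower. Residuals of same-numbered KO and WT arrays correlated between -0.040 and 0.042, within the range of the other pairs (-0.13 to 0.15). No pairing by number was thus seen, although so few arrays cannot exclude it and the labels do not give one. The list counts under the alternatives, chosen after seeing the data, were 0 to 6 higher for glycosphingolipid breakdown and 0 to 5 for sugar nucleotide supply. Both were 0 when a log2 fold change beyond 1 was required. The *t*-test called 2 sugar nucleotide genes higher with equal variances and 0 with unequal variances. For glycosphingolipid breakdown it called 5 and 3. Dim WT signal limits what is known of the size of the *St8sia5* change, and 20 of the 63 genes lie in the dim range.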
